A study of Mus musculus with 12 samples.

Results

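The alpha class glutathione S-transferases (GSTs) were taken as the 4 mouse genes Gsta1, Gsta2, Gsta3 and Gsta4, with every probe set whose platform symbol is or contains one of them. This gave 5 probe sets out of 22626 that are not array controls, and the 4 genes stand among 13319 gene symbols on the array. Gsta2 and Gsta4 have 1 probe set each of their own and Gsta3 has 2. Gsta1 has none of its own: it is read by a probe set annotated to 3 genes at once (Gm3776, Gsta2 and Gsta1), which is called the shared probe set here and whose signal cannot be split among them. All 5 probe sets lay above the 40th percentile of the array on 12 of 12 arrays, so none was lost to the filter on low values.

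The values are log2 expression in liver RNA of 12 male C57BL6/J mice, 8 weeks old, 3 per group. The groups were mice labelled Txnrd1 liver-null given 100 mg/kg acetaminophen (APAP) into the peritoneum, mice labelled liver-null given saline, wild-type mice given APAP, and wild-type mice given saline, with livers taken 8 hours after injection. In the liver-null mice a conditional allele of Txnrd1, the gene of cytosolic thioredoxin reductase, is disrupted by albCre. This Cre recombinase is driven by the albumin promoter and thus active in hepatocytes. The state of the gene in other cells of the liver was not measured. Whether the wild-type mice carried albCre or the unrecombined conditional allele is not stated in the labels. The comparisons ask how the genotype, the drug and both together move the transcripts of this enzyme class.

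GSTs join the thiol of glutathione to electrophiles, which makes them soluble enough to be exported from the cell. Alpha class enzymes are abundant in hepatocytes and are also known for reducing lipid hydroperoxides, and Gsta4 is known for conjugating 4-hydroxynonenal, an aldehyde made when membrane lipids are oxidised. Mouse Gsta1 and Gsta2 are known as inducible genes whose transcription can be raised by NRF2, a factor freed when its inhibitor KEAP1 is modified by electrophiles, whereas Gsta3 is known as the major constitutive alpha class enzyme of mouse liver. The oxidised metabolite of APAP is captured by glutathione.

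In the RefSeq annotation of GRCm38.p6, Gsta4, Gsta1, Gm3776 and Gsta2 lie in one stretch of mouse chromosome 9 and Gsta3 lies on chromosome 1. The bases upstream of the genes read by the shared probe set are shown because they tell how alike these genes are, and Gsta3 is set beside them as the member on another chromosome. The stretches are Gsta1 at chr9:78230419-78230668 (plus strand), Gm3776 at chr9:78256879-78257128 (plus strand), Gsta2 at chr9:78347193-78347395 (minus strand) and Gsta3 at chr1:21240335-21240564 (plus strand), from RefSeq GRCm38.p6, 5′ to 3′ on the strand of the gene and outside its annotated transcripts. Capitals mark a run of 29 bases that is identical in Gsta1, Gm3776 and Gsta2 and, in Gsta3, the 9 bases that match the antioxidant response element core TGACNNNGC, the motif bound by NRF2.
Gsta1: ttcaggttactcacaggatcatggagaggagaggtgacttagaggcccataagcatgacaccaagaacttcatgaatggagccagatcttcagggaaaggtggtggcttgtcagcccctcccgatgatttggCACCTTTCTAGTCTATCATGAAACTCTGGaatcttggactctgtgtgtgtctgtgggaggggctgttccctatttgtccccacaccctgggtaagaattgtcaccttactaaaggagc
Gm3776: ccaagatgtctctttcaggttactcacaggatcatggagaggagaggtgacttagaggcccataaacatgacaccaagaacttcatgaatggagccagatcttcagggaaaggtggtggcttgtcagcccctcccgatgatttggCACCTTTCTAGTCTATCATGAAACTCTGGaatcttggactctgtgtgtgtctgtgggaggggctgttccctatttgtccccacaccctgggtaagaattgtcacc
Gsta2: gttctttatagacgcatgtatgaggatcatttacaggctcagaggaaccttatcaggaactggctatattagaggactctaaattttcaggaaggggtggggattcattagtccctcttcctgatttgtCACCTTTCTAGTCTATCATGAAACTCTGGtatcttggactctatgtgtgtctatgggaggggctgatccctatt
Gsta3: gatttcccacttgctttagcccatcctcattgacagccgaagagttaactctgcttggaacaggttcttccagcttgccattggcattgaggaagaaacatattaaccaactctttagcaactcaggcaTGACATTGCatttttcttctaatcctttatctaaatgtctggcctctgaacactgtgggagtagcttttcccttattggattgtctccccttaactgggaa

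Over each gene's whole RefSeq window around its start, Gsta1 and Gm3776 were identical at 284 of 287 aligned positions (99.0%). Gsta2 matched Gsta1 at 77.1% and Gm3776 at 76.4% of aligned positions, and Gsta3 matched the other windows at 50.9% to 52.1%. Searched on both strands, TGACNNNGC occurred in 12.4% of 32851 mouse promoter windows. It was found once in the Gsta3 window, starting 121 bases before the gene's start, and these letters were not in the windows of Gsta1, Gm3776 and Gsta2. The windows begin 250 bases before the start, so bases further upstream were not searched for any of these genes. TNGCGTG, the core of the element bound by the aryl hydrocarbon receptor, occurred in 5.07% of all windows. It was found in the windows of Gsta2 and Gm3776, close to the start and outside the stretches printed above, and was not found in those of Gsta1 and Gsta3.

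Several facts about the arrays and labels touch the results below. Txnrd1 went against its label: its expressed probe set read 10.26 to 10.58 in the 6 livers labelled liver-null and 9.43 to 9.81 in the 6 wild-type livers. Where its probes lie relative to the deleted part is not known here, so it does not check the genotype, and every direction below rests on the labels. The arrays fell into a set of 8 and a set of 4 (liver-null APAP 17, liver-null saline 16, wild-type APAP 14 and wild-type saline 10), with upper quartiles of 5.73 to 5.85 and 5.49 to 5.58, which the labels do not name and which each hold all 4 groups. Differences within each set are given beside the fitted ones of Gsta2, the shared probe set and Gsta4. The 7 hepatocyte markers averaged 12.36 to 12.65 on every array and none of the 7 differed by genotype. Single markers of some other cells were lower in livers labelled liver-null, and their part in the results was not tested. The 3 pancreatic acinar markers tested included 1 called lower (Cela1, -1.77 averaged over treatments). The 2 intestinal markers included 1 (Fabp2, -0.79) and the 7 stellate cell markers included 1 (Pdgfrb, -0.62, limma adjusted p = 0.0268). The mean of the acinar markers on the array was 3.20 to 3.42 in livers labelled liver-null and 3.67 to 3.87 in wild-type livers, that of the intestinal markers 4.49 to 4.90 against 4.78 to 5.13, that of the stellate markers 4.39 to 4.87 against 4.81 to 5.25, and that of the erythroid markers 3.98 to 4.22 against 4.28 to 4.65. These list means can rest on 1 gene. Averaged over treatments, the tested acinar markers ran from -1.77 to 0.11, with a median of -0.14. The intestinal markers ran from -0.79 to 0.003, the tested erythroid markers from -0.83 to -0.01 and the stellate markers from -0.65 to -0.06. In bulk liver, fewer cells of a type and less RNA per cell cannot be told apart, and which cells gave a marker's signal is not known.

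Gsta2 was higher in livers labelled liver-null after either injection. After APAP its own probe set read 11.99, 12.09 and 11.96 in livers labelled liver-null, against 7.69, 9.27 and 9.65 in wild-type livers. In saline it read 11.83, 12.06 and 12.13 in livers labelled liver-null, against 9.86, 9.62 and 10.38 in wild-type livers. The genotypes did not overlap in either treatment, and 6 livers of 6 labelled liver-null lay above 6 of 6 wild-type livers. The 6 livers labelled liver-null spanned 0.30 log2 units and the 6 wild-type livers 2.69.

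The fitted difference for Gsta2 was 3.15 ± 0.39 (SE) on the log2 scale after APAP, an 8.85-fold higher level (95% interval 4.87 to 16.1, limma adjusted p = 0.0039). In saline it was 2.05 ± 0.39, a 4.15-fold higher level (2.29 to 7.55, adjusted p = 0.0456). Within the larger and the smaller array set the differences were 3.56 and 2.31 after APAP, and 2.21 and 1.75 in saline. The saline call passed the threshold narrowly: it was lost when any of 5 livers was left out, namely wild-type saline 8 (2.01, adjusted p = 0.205) or 9 (1.89, 0.175) or liver-null saline 4 (2.14, 0.125), 5 (2.03, 0.132) or 16 (1.99, 0.0791). After APAP the call held without each liver, and the difference was 2.55 without wild-type APAP 12.

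The shared probe set showed the widest gap of the class. After APAP it read 11.99, 12.17 and 11.93 in livers labelled liver-null, against 5.74, 8.13 and 9.20 in wild-type livers. In saline it read 11.69, 12.13 and 12.07 in livers labelled liver-null, against 8.74, 8.95 and 10.07 in wild-type livers. The lowest liver labelled liver-null was above the highest wild-type liver, and the wild-type livers were spread over 4.33 log2 units, against 0.48 for those labelled liver-null.

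The shared probe set's difference after APAP was 4.34 ± 0.66 (SE), 20.3-fold (7.38 to 55.6, limma adjusted p = 0.0115), with 5.15 and 2.73 within the larger and the smaller array set. In saline it was 2.71 ± 0.66, 6.55-fold (2.39 to 18.0), and did not pass the threshold (adjusted p = 0.11), with 3.07 and 2.00 within the sets. The size after APAP depended on single wild-type livers, since the difference was 3.37 without wild-type APAP 12 and 5.10 without wild-type APAP 14, both past the threshold. Without liver-null APAP 2 or 3 it stayed at 4.36 and 4.27 with adjusted p of 0.062 and 0.0573.

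Gsta4, the conjugating enzyme for hydroxynonenal, moved the same way by a smaller amount. After APAP it read 10.62, 10.58 and 10.19 in livers labelled liver-null, against 7.69, 8.81 and 9.12 in wild-type livers. In saline it read 10.23, 10.60 and 10.45 in livers labelled liver-null, against 9.21, 9.27 and 9.31 in wild-type livers. Again no liver of one genotype reached the other, and the 3 wild-type saline livers lay close together (SD 0.05).

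The difference for Gsta4 after APAP was 1.92 ± 0.29 (SE), 3.78-fold (2.43 to 5.87, limma adjusted p = 0.0109), with 2.34 and 1.07 within the array sets. In saline it was 1.16 ± 0.29, 2.24-fold (1.44 to 3.48), with 1.18 and 1.13 within the sets, and missed the threshold (adjusted p = 0.117). The APAP call was lost without liver-null APAP 2 (1.84, adjusted p = 0.062) or 3 (1.86, 0.0573).

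Gsta3, the constitutive member on chromosome 1, was high in every liver and did not differ by genotype past the threshold. Its first probe set read 12.77, 12.99 and 12.92 in livers labelled liver-null after APAP, against 12.33, 12.82 and 12.60 in wild-type livers after APAP. In saline it read 12.53, 12.97 and 12.90 in livers labelled liver-null, against 12.57, 12.63 and 12.73 in wild-type livers. The groups overlapped in both treatments, and 0.110% to 0.401% of the array's probe sets were brighter. The second Gsta3 probe set spanned 9.91 to 10.85 in the 6 livers labelled liver-null and 9.10 to 10.42 in the 6 wild-type livers.

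Averaged over treatments, the differences for Gsta3 were 0.23 ± 0.11 (SE), 1.18-fold (0.998 to 1.38, limma adjusted p = 0.324), and 0.43 ± 0.23, 1.35-fold (0.95 to 1.92, adjusted p = 0.413), for the first and the second probe set. They were positive in both array sets, at 0.23 and 0.24 for the first and 0.46 and 0.38 for the second. With 6 livers per genotype, both intervals held no change as well as a higher level up to their upper ends.

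**Figure D1:**
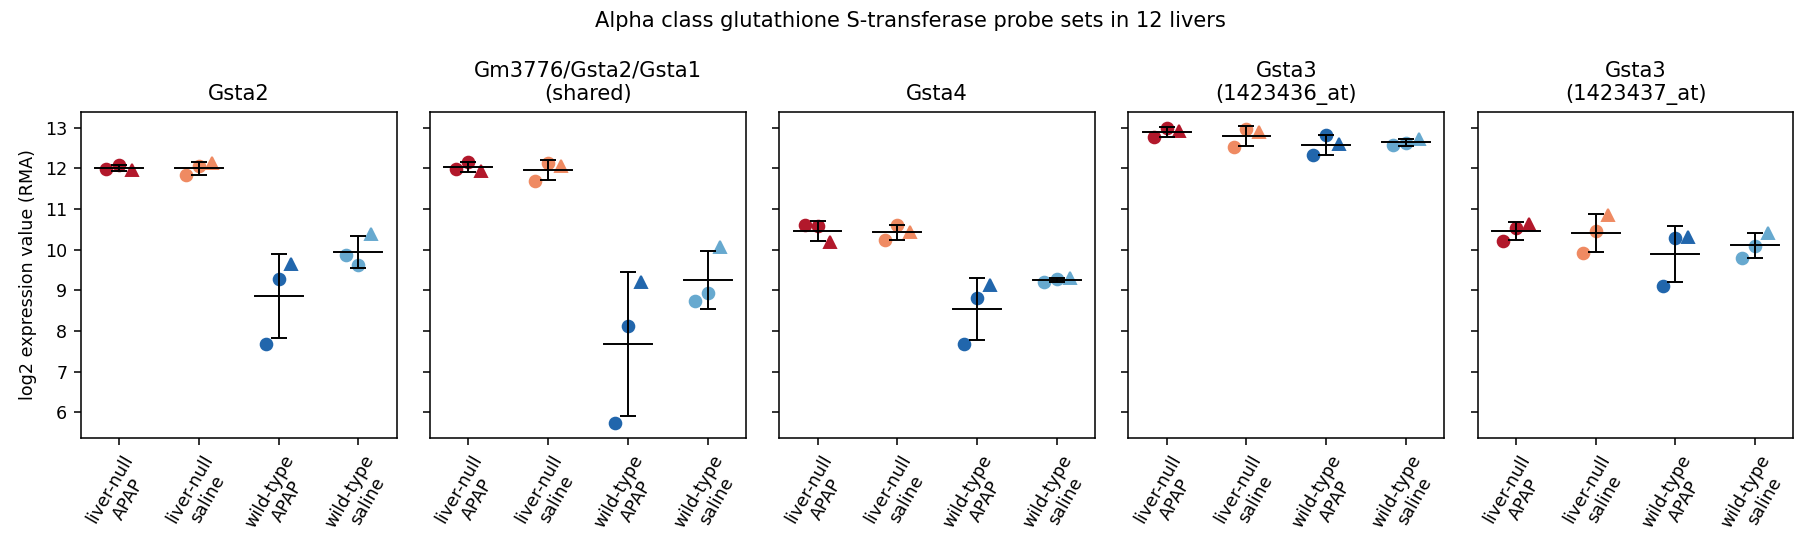
Log2 expression of the 5 alpha class GST probe sets in each liver (vertical axis) by group (horizontal axis: labelled liver-null after APAP, labelled liver-null in saline, wild-type after APAP, wild-type in saline; 3 livers each). Circles are livers of the larger array set and triangles those of the smaller set, bars are group means and error lines SD; Gsta2, the shared probe set and Gsta4 do not overlap between genotypes, while Gsta3 does.

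Counted over the class, 3 of 5 probe sets were called higher after APAP, 1 of 5 in saline and 3 of 5 when the genotype difference was averaged over treatments, and none was called lower. Gsta2's own probe set and the shared one both read Gsta2, so the same transcript can count in both. With 1 probe set per gene, which drops the shared one, 2 were called after APAP, 1 in saline and 2 averaged. The shares called in either direction were then 0.768%, 0.638% and 4.46% of 8469. Over all 14324 probe sets tested, 0.579% were called higher and 0.182% lower after APAP (0.761% in all). In saline these shares were 0.356% higher and 0.265% lower (0.621% in all), and averaged over treatments 1.84% higher and 1.82% lower (3.65% in all). The median difference of the 5 probe sets was 1.92 after APAP and 1.16 in saline, where the medians over all probe sets were 0.00 and -0.02. Groups that did not overlap, with livers labelled liver-null higher, were found for 3 of 5 probe sets in each treatment, against 6.65% of all tested probe sets after APAP and 6.42% in saline. With 6 livers against 6 the same 3 did not overlap, against 1.94% of all. Averaged over treatments, the fold differences were 6.06 for Gsta2 (3.97 to 9.25, limma adjusted p = 0.000501), 11.5 for the shared probe set (5.64 to 23.5, 0.00206) and 2.91 for Gsta4 (2.13 to 3.97, 0.00206). On the log2 scale the averaged differences within the larger and the smaller array set were 2.88 and 2.03 for Gsta2, 4.11 and 2.37 for the shared probe set and 1.76 and 1.10 for Gsta4. Of genes flanking the chromosome 9 stretch, Cilk1 and Dppa5a were not called: the averaged difference was 0.13 for Cilk1 (limma adjusted p = 0.752) and -0.07 for Dppa5a (0.819). Gm10639, Omt2a and Omt2b lie inside the stretch and had no tested probe set, so they were not compared.

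**Figure D2:**
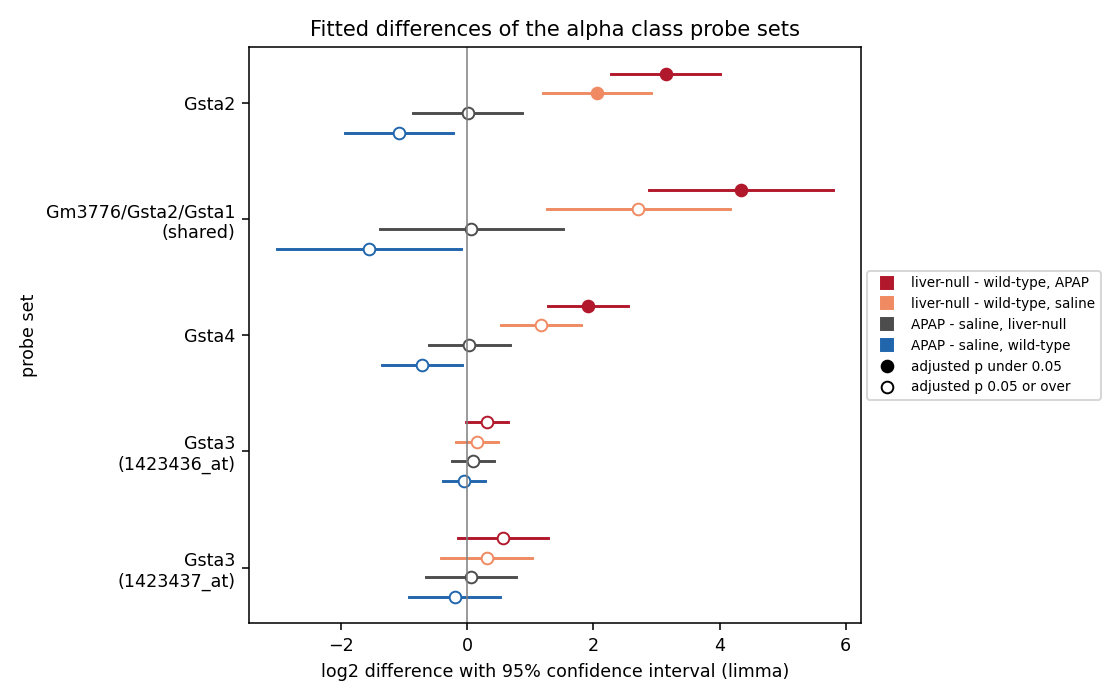
Fitted log2 differences (horizontal axis) of the 5 probe sets in 4 comparisons, livers labelled liver-null minus wild-type livers after APAP and in saline, and APAP minus saline in each genotype; points are limma estimates and lines 95% intervals. The genotype differences of Gsta2, the shared probe set and Gsta4 lie right of 0, and those of Gsta3 cross it.

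The probe sets also differed from one another in the size of their genotype difference. For each pair of probe sets the difference within an array was compared between genotypes by an exact permutation test, two-sided, that exchanged genotype within treatment (400 regroupings, smallest possible p = 0.005), chosen after the data had been seen. In 9 of 10 pairs the p was 0.005 (0.0056 after Benjamini-Hochberg adjustment over the 10 pairs), and the exception was the pair of Gsta3 probe sets (genotype difference 0.20, exact p = 0.315). The 10 pairs reuse the same probe sets and arrays, and the genotype separation of Gsta2, the shared probe set and Gsta4 had been seen first. These p-values thus describe a pattern already seen and add no separate support. The genotype difference of Gsta2 was larger than that of Gsta4 by 1.06 and larger than those of the Gsta3 probe sets by 2.37 and 2.17. Gsta4 in turn exceeded the Gsta3 probe sets by 1.31 and 1.11.

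The shared probe set exceeded Gsta2's own probe set by 0.93 in this measure. On one array the shared minus the Gsta2 value was -0.01 ± 0.08 in livers labelled liver-null and -0.94 ± 0.60 in wild-type livers (SD, n = 6 each). It ran from -0.14 to 0.08 in livers labelled liver-null, against -1.95 to -0.31 in wild-type livers, so the ranges did not overlap. Which of Gsta1, Gm3776 and Gsta2 the shared signal came from, and how each probe set's signal scales with the amount of RNA, was not tested.

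The drug by itself left no member past the threshold. In livers labelled liver-null the APAP minus saline difference was between 0.00 and 0.10 for the 5 probe sets (limma adjusted p = 1 for each), with a 95% interval for Gsta2 of 0.552-fold to 1.82-fold. That interval uses a residual variance shared by the 4 groups, whose SD for Gsta2 ran from 0.07 in liver-null APAP livers to 1.04 in wild-type APAP livers. The SE for Gsta2 was 0.39 in this fit and 0.126 in a fit on the liver-null arrays only. The difference turned sign between the larger and the smaller array set, at 0.09 and -0.17 for Gsta2, 0.17 and -0.15 for the shared probe set and 0.18 and -0.26 for Gsta4. In wild-type livers it was -1.09 ± 0.39 (SE) for Gsta2, -1.57 ± 0.66 for the shared probe set, -0.72 ± 0.29 for Gsta4, and -0.06 and -0.20 for Gsta3, again with an adjusted p of 1 for each. None of the 14324 probe sets was called by limma for APAP in either genotype (0%). At an unadjusted p under 0.05 there were 276 (1.93%) in wild-type livers, among them 3 of the 5 members, and 103 (0.719%) in livers labelled liver-null, among them 0 of the 5. Only Gsta4 had wild-type groups that did not overlap, lower after APAP, as did 2.72% of all tested probe sets.

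The sizes of the wild-type differences depended on single livers. Without wild-type APAP 12 they were -0.50 for Gsta2, -0.59 for the shared probe set and -0.30 for Gsta4, and without wild-type APAP 14 they were -1.47, -2.32 and -1.01. Within the larger and the smaller array set they were -1.26 and -0.74 for Gsta2, -1.91 and -0.87 for the shared probe set and -0.99 and -0.19 for Gsta4. The difference between the genotypes in their response to APAP was 1.09 ± 0.56 (SE) for Gsta2, 1.63 ± 0.94 for the shared probe set, 0.76 ± 0.41 for Gsta4, and 0.15 and 0.26 for Gsta3, with a limma adjusted p of 1 for each. None of the 14324 probe sets was called in this test either (0%), and at an unadjusted p under 0.05 there were 188 (1.31%), among them 0 of the 5 members. For Gsta2, the shared probe set and Gsta4 these values were 0.50, 0.65 and 0.33 without wild-type APAP 12, and 1.48, 2.38 and 1.05 without wild-type APAP 14. Within the larger and the smaller array set they were 1.36 and 0.56 for Gsta2, 2.08 and 0.72 for the shared probe set and 1.17 and -0.07 for Gsta4, whose sign thus differed between the sets.

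Deviations of the 5 probe sets from their group means were correlated over the 12 arrays, but not alike in every group. The shared probe set deviated by -1.95 to 1.51 in wild-type APAP livers, against -0.27 to 0.16 in livers labelled liver-null. In liver-null APAP 2, 3 and 17, Gsta4 deviated by 0.157, 0.115 and -0.271. The second Gsta3 probe set deviated there by -0.258, 0.079 and 0.179. After each group's mean was removed, Pearson's r over the 12 arrays was 0.98 for Gsta2 with the shared probe set, 0.91 for Gsta4 with either of them, 0.86 between the Gsta3 probe sets, and 0.61 to 0.83 for Gsta3 with the others, given as a description of arrays that share groups and array sets. Wild-type APAP 12 and liver-null saline 4 were the lowest livers of their group in 5 of 5 probe sets. Liver-null saline 4 lay 0.19 below its group mean for Gsta4, and wild-type APAP 12 lay 0.85 below its own. These same livers had the highest means of the neutrophil markers, 3.65 in liver-null saline 4 and 3.17 in wild-type APAP 12, against 2.28 to 2.72 in the other 10. They also had the highest means of 7 acute phase genes chosen after the data had been seen (Saa1, Saa2, Saa3, Lcn2, Orm1, Orm2 and Hp), 12.61 and 11.78, against 8.21 to 11.28 elsewhere. The other groups did not share this pattern. Wild-type saline 8, with an acute phase mean of 8.46, was lowest of its group in 4 of 5 probe sets. Wild-type saline 9, at 10.61, was lowest in 1 of 5, and wild-type saline 10, at 9.24, in 0. Liver-null APAP 17, at 10.09, was lowest in 3 of 5 and liver-null APAP 2, at 10.43, in 2 of 5. Liver-null APAP 3, at 10.39, was lowest in 0. The part of the neutrophil markers or the acute phase genes in the member values was not tested.

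**Figure D3:**
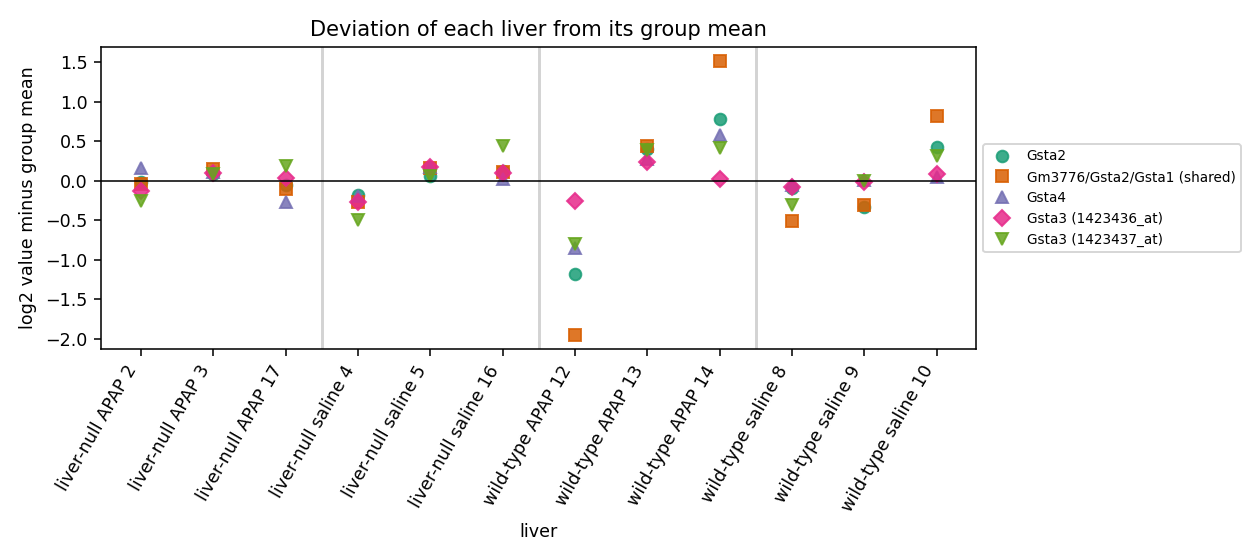
Deviation of each liver from its group mean (vertical axis, log2 units) for the 5 probe sets, liver by liver (horizontal axis). Wild-type APAP 12 is below its group mean in all 5 probe sets and so is liver-null saline 4.

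Other GST classes gave a mixed picture beside the alpha class. Of 14 tested genes of the mu, pi, theta, omega, zeta and kappa classes, 3 were called higher after APAP, 3 in saline and 6 averaged over treatments, and 0 were called lower, with medians of 0.60, 0.40 and 0.51. The mu class genes Gstm3 and Gstm4 were the furthest apart after APAP, at 2.27 each (limma adjusted p = 0.00223 and 0.00283), and 1.57 each in saline. Gstm2 differed by 0.98 after APAP and 0.79 in saline (adjusted p = 0.00456 and 0.0205). Gstt3 of the theta class, called only in the averaged comparison among the comparisons made, differed by 1.89 (0.0113). Gstp1, the pi class gene, gave -0.04 and did not pass (0.883). Of 4 tested microsomal transferases 1 was called higher, Mgst3, which handles leukotrienes and lipid peroxides, by 2.88 after APAP and 1.99 in saline (adjusted p = 0.00247 and 0.0205). Probe sets of the closely related mu class genes can bind each other's transcripts.

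**Figure D4:**
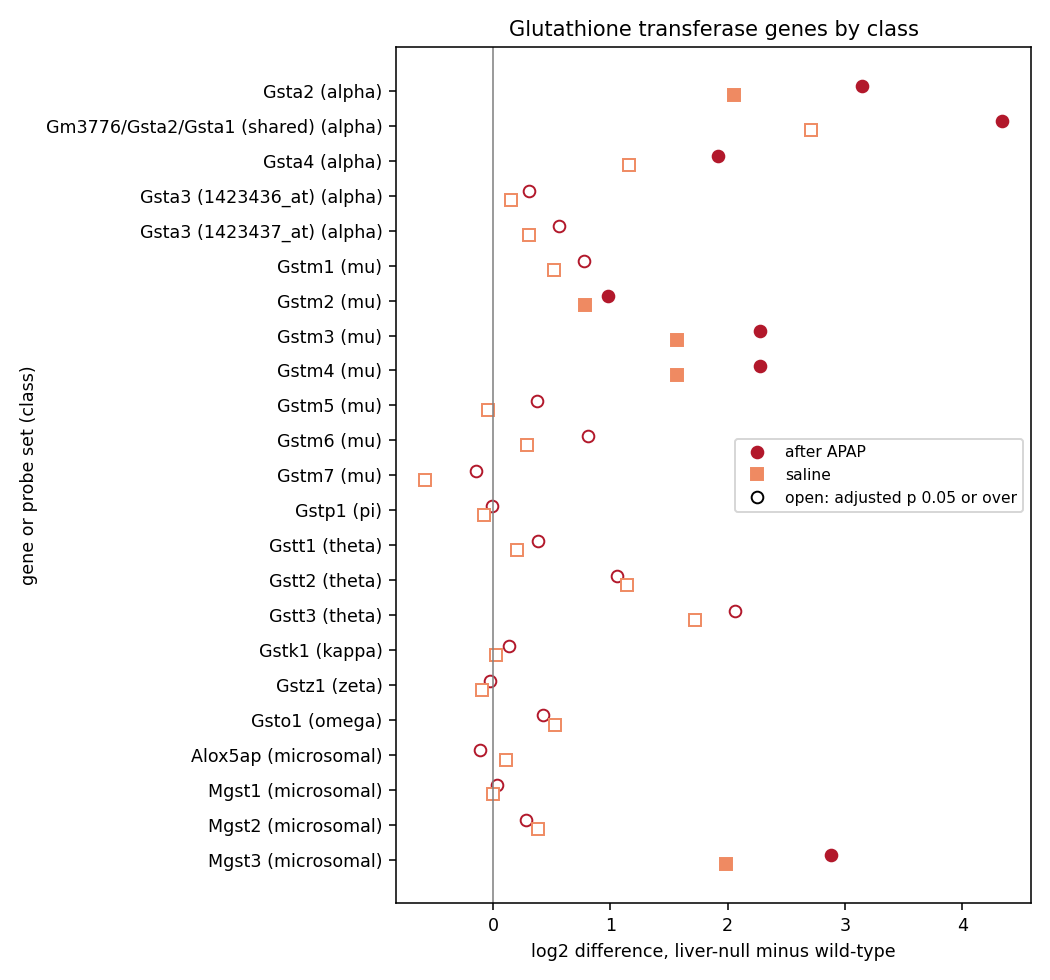
Log2 genotype difference (livers labelled liver-null minus wild-type livers, horizontal axis) after APAP and in saline for GST genes grouped by class (rows). Gsta2, the shared alpha probe set, Gstm3, Gstm4 and Mgst3 lie far to the right, and Gsta3 and Gstp1 lie closer to 0.

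Genes that supply glutathione or act on the same substrates were set beside the class. Of 12 genes of glutathione synthesis, reduction and turnover, 1 was higher after APAP, 1 was higher and 1 lower in saline, and 2 were higher and 1 lower averaged over treatments (median 0.14). Gsr, glutathione reductase, differed by 0.97 after APAP and 0.76 in saline (limma adjusted p = 0.00307 and 0.0155). Gclc, the catalytic subunit of the enzyme that limits glutathione synthesis, differed by 0.96 when averaged (0.0227). Cbs, which makes cystathionine on the way from methionine to cysteine, was lower by -0.94 in saline (0.0297).

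Of 16 genes that handle lipid peroxides and reactive aldehydes, 3 were called higher after APAP, 1 in saline and 5 averaged over treatments, and 0 lower (median 0.30 averaged). Cbr3, a carbonyl reductase, differed by 7.10 after APAP (limma adjusted p = 0.0115), Cbr1 by 2.03 (0.0106) and Ephx1, microsomal epoxide hydrolase, by 0.91 (0.0159). The largest genotype difference of this list was 4.89 in saline and 5.99 averaged over treatments. The lowest APAP minus saline difference of the list in wild-type livers was -1.93, which was not called. Of 6 exporters of conjugates, 1 was called higher after APAP, 0 in saline and 2 averaged over treatments, among them Abcc5 (2.01 after APAP, 0.0405) and Abcc3 (1.24 averaged, 0.00778).

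Of 17 other known targets of NRF2, 9 were called higher after APAP, 7 in saline and 11 averaged over treatments, and 0 lower, with medians of 0.95, 0.74 and 0.81. The list holds Txnrd1, the gene of the label, among those called. Nqo1, a quinone reductase, differed by 3.69 after APAP and 2.83 in saline, and Slc48a1, a heme transporter, by 2.74 and 1.71. Srxn1, which repairs oxidised peroxiredoxins, differed by 1.59 and 1.28. Of NRF2 itself and 8 partners, 1 was called: Nfe2l2, the gene of NRF2, was lower by -0.83 after APAP (limma adjusted p = 0.0448) and by -0.76 averaged (0.00426), and by -0.69 in saline, where it did not pass (0.0953). Of 9 other transcription factor genes linked to alpha class GSTs, 0 were called in any of these comparisons, and Nr1i3, the constitutive androstane receptor, gave 0.84 averaged (0.0761).

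Genes that mark zones of the liver lobule were compared because some GSTs are expressed more around the central vein. Of 12 pericentral genes, 1 was called higher in each treatment, Rhbg, an ammonia transporter (1.12 after APAP and 1.45 in saline, limma adjusted p = 0.0109 and 0.00642), and the median was -0.04 after APAP and 0.05 in saline. Lect2 was lower by -0.73 when averaged (0.00959). Of 8 periportal genes 0 were called in either treatment, with medians of -0.04 after APAP and -0.06 in saline, and Cdh1 gave -1.26 in saline (0.18). No gene of any of these lists was called for APAP in either genotype or for the difference between genotypes in the response to APAP.

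Values of Gsta2, the shared probe set and Gsta4 followed one another over the 12 arrays. Pearson's r was 0.994 for Gsta2 with the shared probe set, which also reads Gsta2, and 0.986 for Gsta4 with either. For the Gsta3 probe sets r was 0.715 to 0.755 with these and 0.888 with each other. All these r include the difference between genotypes. The nearest probe sets outside the class, among those tested that carry 1 gene symbol, were ranked by the same r, as a description. For Gsta2 they were Gstm4 (0.987), Gstm3 (0.98), Aox1 (0.972), a second Gstm3 probe set (0.97) and Ephx1 (0.969). For Gsta4 these outside probe sets were Gstm4 (0.983), Gstm3 (0.972), Mgst3 (0.971), the second Gstm3 probe set (0.97) and Ephx1 (0.969). Outside the class, the shared probe set was followed by Gstm4, Gstm3, Aox1, Ephx1 and Cbr1 (0.968 to 0.981). The lists thus overlapped in Gstm4, Gstm3 and Ephx1, and none of these genes was among the 5 nearest outside the class to Gsta3.

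Also outside the class, the first Gsta3 probe set was followed by both Ugt2b34 probe sets (0.959 and 0.952), 4931406C07Rik (0.953), Ugp2 (0.952) and Rnf128 (0.948). The second was followed by Akr1c14 (0.961), Ces1d (0.954), Pctp (0.953), Gsto1 (0.941) and Ugp2 (0.93). When group means were removed, the highest r with a probe set outside the class was, for Gsta2, with Gstt1 (0.954), Stat6 (0.939) and Mfsd4b1 (0.936), and for Gsta4 with Hsd17b6 (0.96), Pgm1 (0.927) and Pmpca (0.92). For the shared probe set the highest outside the class were Tmem106c (0.961), Gstt1 (0.938) and Dlgap5 (0.937). For Gsta3 they were Ndufaf4, Gid4 and Ddo (0.961 to 0.966) at the first probe set and Akr1c14, Ces1d and Pctp (0.968 to 0.97) at the second. The outside neighbours of a member by this measure differed from those over the raw values, apart from the 3 genes of the second Gsta3 probe set.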

How the data were processed

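The deposited table holds log2 expression values per probe set, which the authors made with RMA, per the submitters' processing notes; its version is not given in the sources used here. RMA corrects background, normalizes arrays and summarises probes, and compresses differences of dim probe sets. RNA was extracted from liver and labelled in 1 amplification cycle, per the labels' protocols. There are 22690 probe sets on 12 arrays, with no detection calls, of which 64 are controls. Probe sets above the array's 40th percentile on at least 3 arrays were tested (14324), and 8302 others were not. The test was limma 3.58.1, run in R 4.3.3 (group means for 4 groups, 8 residual degrees of freedom, default eBayes, Benjamini-Hochberg over all 14324, two-sided, adjusted p under 0.05, 6 comparisons), after a check on simulated data. Every adjusted p of a probe set or gene comes from this fit. Lists used 1 probe set per gene, that with the highest mean. Names came from the platform annotation: 20380 probe sets had 1 symbol, 691 several and 1555 none listed. Pair tests, promoter alignments and motif searches used scipy 1.17.1 and Biopython 1.88. For arrays the number of arrays, 3 per group, limits the precision. The design text calls the mice biological replicates, and no replicate number is shared between groups. The named genes were every member, Txnrd1, up to 3 called members of each list and direction with the largest difference (or the single largest where none was called) and the nearest probe sets by correlation; Gstp1, Cilk1, Dppa5a and the acute phase genes fall outside this rule and were chosen after their values were seen. The members and lists were chosen with earlier results of these data known.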

Additional observations from a re-analysis of the deposited data

Results flagged for a closer look

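Gsta4 in wild-type APAP 12 stood apart from the other wild-type livers. It read 7.69, against 8.81 to 9.31 in the other 5, and its gap to the nearest of them was 0.69 of the whole range of the 6 livers, above Dixon's 95% critical value for 6 samples. Chance alone gives such a gap in about 5% of groups drawn from 1 population. The rule was applied to all 5 probe sets in each genotype, and the 6 livers here mix saline and APAP.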

How the results depend on the processing

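No genotype difference of a member changed direction under any alternative. The APAP differences, none of them past the threshold, changed sign under some alternatives for all 5 probe sets in livers labelled liver-null and for both Gsta3 probe sets in wild-type livers, as did the genotype difference in the APAP response of Gsta3. The numbers of members called averaged over treatments (3), for APAP in either genotype (0) and for the genotype difference in the APAP response (0) stayed the same in every alternative run, except that 1 probe set per gene, which drops the shared probe set, gave 2 averaged and 2 after APAP. In saline the count was 1 of 5, and became 3 when the fit used the 6 saline arrays only, 3 with array weights, 2 with the array set as a covariate (Gsta2 and the shared probe set) and 0 with no filter on low values, where Gsta2 had an adjusted p of 0.0631. After APAP the count was 3, and became 1 when the fit used the 6 APAP arrays only. Leaving out each liver in turn gave 0 to 1 in saline and 1 to 3 after APAP. Over all probe sets, the calls in saline (89, 0.621%) became 31 (0.216%) with the saline arrays only, 385 (2.69%) with the array set as a covariate and 168 (1.17%) with a trended and robust prior. They became 2040 (14.2%) with array weights, 163 (1.14%) after quantile normalization and 54 of 8469 (0.638%) with 1 probe set per gene. With no filter on low values they became 71 of 22626 (0.314%). After APAP the calls (109, 0.761%) became 66 (0.461%) with the APAP arrays only, 282 (1.97%) with the covariate and 146 (1.02%) with the trended and robust prior. They became 286 (2%) with array weights, 142 (0.991%) after quantile normalization and 65 of 8469 (0.768%) with 1 probe set per gene. Averaged over treatments the calls (523, 3.65%) became 1262 (8.81%) with the covariate, 1991 (13.9%) with array weights and 814 (5.68%) after quantile normalization. They became 1048 (7.32%) with the covariate and wild-type APAP 12 left out, an alternative added after the data had been seen. Leaving out each liver gave 13 to 124 calls in saline, 32 to 92 after APAP and 311 to 611 averaged. No paired analysis was possible because no replicate number is shared between groups. The pair tests give no measure of stability, since their p lay at the smallest value possible for 9 pairs. Centring moved the median by 0.0082 or less in size. With 3 arrays per group, small differences of Gsta3 and of the drug could go uncalled, and bright probe sets may be compressed near the array maximum of 13.69 to 13.97.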
